A study of Rattus norvegicus with 14 samples.

Results

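The genes described here code for carriers of amino acids and of amino acid-like transmitters in the rat, set out across the pineal gland, the retina and pools of mixed tissue over 1 day. They were taken from the deposited expression table as every gene whose symbol begins with the solute carrier names Slc1a, Slc3a, Slc6a, Slc7a, Slc17a, Slc36a, Slc38a or Slc43a followed by a number, with Slc6a3 left out. This gave 65 of the 16472 genes (67 of 16932 transcripts): 7 in family SLC1, 16 in SLC6, 2 in SLC3, 16 in SLC7, 8 in SLC17, 4 in SLC36, 9 in SLC38 and 3 in SLC43. 1 of them, Slc7a6os, carries the name only because it lies next to Slc7a6 and is not known to code for a carrier, so 64 are transporter genes.

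The animals were Sprague-Dawley rats of 6 to 8 weeks kept on a day of 14 h light and 10 h dark, and no other treatment is stated. Pineal glands and retinas were each collected 1 h after lights on (ZT1), at mid-day (ZT7), 1 h before lights off (ZT13), 1 h after lights off (ZT15), at mid-night (ZT19) and 1 h before lights on (ZT23). Each of these 12 RNA libraries was made from a pool of 10 animals, so differences between animals cannot be seen, and each tissue and time has 1 library. The mixed tissue libraries, 1 at ZT7 and 1 at ZT19, came from pools of 15 tissues of 3 animals that included the retina and left out the pineal gland, and serve as a comparison for tissue enrichment.

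Transmitters packed into vesicles are released and then taken back into cells by carriers in the plasma membrane. Members of SLC17 load glutamate into vesicles, members of SLC1 and SLC6 clear glutamate, GABA, glycine, taurine and monoamines, and members of SLC38 pass glutamine between glia and neurons as the precursor of glutamate. Members of SLC7, several of which work only as pairs with a heavy chain of SLC3, exchange large neutral amino acids, basic amino acids and cystine. The pinealocyte, the melatonin-making cell of the pineal gland, takes up tryptophan as the raw material of melatonin and also stores and releases glutamate, while the retina uses glutamate in photoreceptors and bipolar cells and GABA and glycine in inhibitory neurons.

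Levels are given in FPKM, fragments scaled to the length of the transcript and to the sequenced total of the library, so levels of different genes can be compared per length. Tests were made with limma on log2(FPKM + 1), a scale that understates the change of weakly expressed genes, and a call means a Benjamini-Hochberg adjusted p under 0.05 over all genes tested. Pineal libraries summed to between 163087 and 180522 FPKM, retinas to between 152281 and 179277 and mixed tissue to between 191467 and 212634, with retina ZT7 the highest of the retinas. A single fragment on 1 kb of transcript, as estimated from olfactory receptor genes, stood for a level that ran from 0.0216 FPKM (retina ZT23) to 0.0527 FPKM (pineal ZT19), so the pineal ZT19 library was the shallowest by this rough measure. The labelled tissues carried their markers: the pinealocyte list (5 of 5 genes found) summed to 4784 to 5349 FPKM in pineal libraries, 967 to 1891 in retinas and 94.3 to 166 in mixed tissue, and the rod list (5 of 5) to 7.59 to 19.6, 12030 to 16190 and 1290.0 to 1674 FPKM in the same 3 groups. Among 20 lists of cell type markers, pineal ZT13 had the highest summed level of the 6 pineal libraries for 11 lists and pineal ZT19 the lowest for 9, while retina ZT7 was highest of the retinas for 12 and retina ZT19 lowest for 9. Lens markers (4 of 5 genes found) summed to 1009 FPKM in retina ZT19, 419 in ZT1 and 174 in ZT23, against 56.4 to 82.1 in the other retinas.

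The 65 genes together took 0.569% to 0.682% of all FPKM in the pineal gland, 0.720% to 0.771% in the retina and 0.409% to 0.431% in mixed tissue. At least 1 FPKM in 2 or more libraries was reached by 37 of the 65 genes in the pineal gland, 40 in the retina and 57 in mixed tissue. 5 genes stayed below that everywhere: Slc36a2, Slc36a3, Slc38a8, Slc6a2 (the noradrenaline transporter) and Slc7a15. Slc17a7 led in both tissues, and in the pineal gland it was followed by Slc6a6, Slc38a3, Slc1a2, Slc38a1, Slc3a2 and Slc17a6 in the order of their median levels, all of which exceeded 40 FPKM in at least 3 of the 6 libraries.

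**Figure D1:**
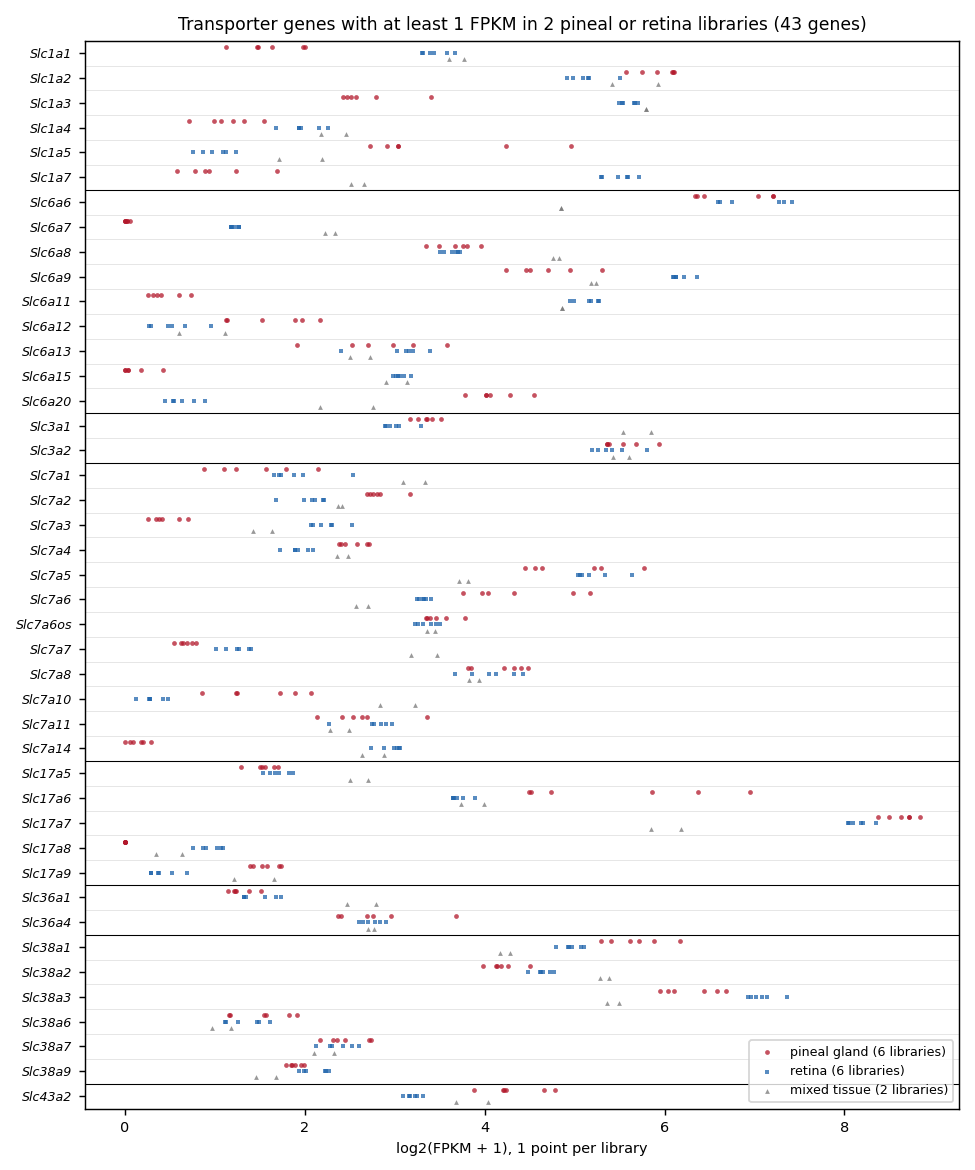
Expression of 43 members that reached 1 FPKM in at least 2 pineal gland or retina libraries. The horizontal axis is log2(FPKM + 1) and each point is 1 library (red circles, pineal gland, 6 libraries; blue squares, retina, 6 libraries; grey triangles, mixed tissue, 2 libraries); black lines part the families. Slc17a7 lies farthest right in both tissues, and Slc6a11, Slc1a3 and Slc1a7 lie farther left in the pineal gland than in the retina.

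The first question of the design was which transcripts follow a 24-h rhythm. A 24-h cosine was fitted in each tissue to the genes with at least 1 FPKM in 2 or more of the 12 time series libraries, 10416 genes in all and 44 of the 65 members. The other 21 members were not tested, and of the 44 tested, 4 passed through the pineal gland alone and 7 through the retina alone. In the pineal gland 16 of the 44 tested members were called rhythmic, 10 with a fitted peak in darkness and 6 in the light, where 20.7% of all tested genes were called, 6.61% with a dark and 14.1% with a light peak. By family, 1 of 6 tested members was called in SLC1, 6 of 10 in SLC6, 4 of 13 in SLC7 and SLC3, 1 of 5 in SLC17, 3 of 6 in SLC38 and 1 of 3 in SLC36 and SLC43. The median fitted peak-to-trough difference was 0.49 on the log2 scale for the 44 members and 0.39 for all tested genes. In the retina 1 of the 44, Slc6a6, was called, where 1.02% of all tested genes were called. An unadjusted p under 0.05 was found there for 10 of the 44 members and for 2251 of all 10416 tested genes. The rhythm differed between the tissues for 5 of the 44, against 4.95% of all tested genes: Slc17a6, Slc6a6, Slc7a5, Slc38a3 and Slc7a1. For this difference 17 of the 44 members and 2305 of all 10416 tested genes had an unadjusted p under 0.05. The count of 5 calls was 0 without the retina ZT1 and ZT19 libraries, and between 1 (without retina ZT7) and 10 (without pineal ZT19) on leaving out 1 library. The count of 16 was 9 without the pineal ZT23 library, 8 without the retina ZT1 and ZT19 libraries and 5 when the pineal gland was fitted alone, and its split was 11 dark against 2 light peaks after median ratio scaling. The shares of all tested genes given above are those of the main setting and can differ under these alternatives. Since each tissue and time had 1 library, the error of every test is what the model left over, and in pooled tissue fewer cells of a type cannot be told apart from less RNA per cell.

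**Figure D2:**
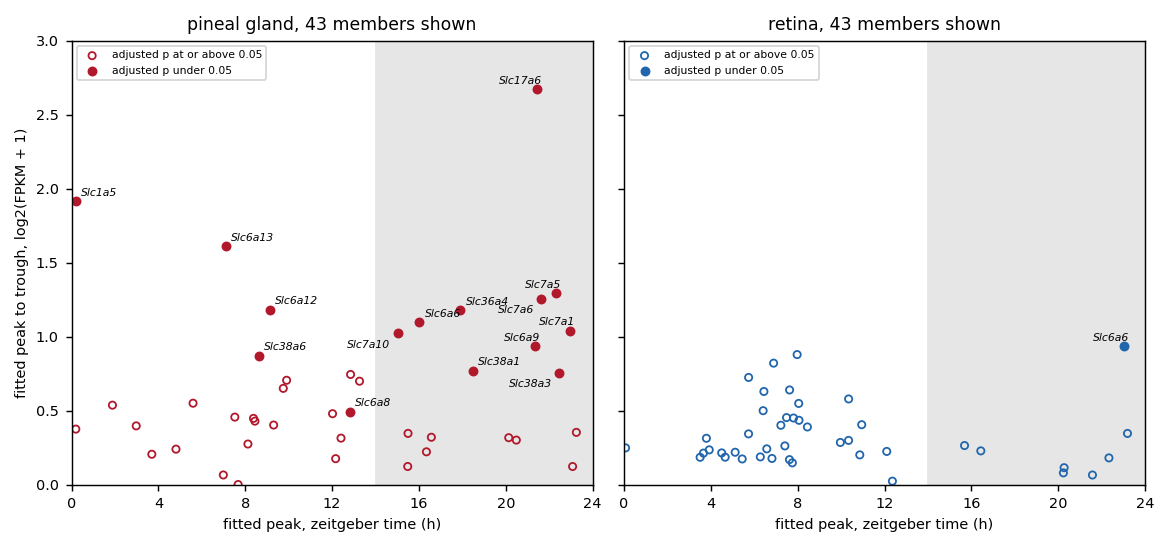
Fitted 24-h rhythm of 43 of the 44 tested members in the pineal gland (left) and the retina (right). The horizontal axis is the fitted peak in hours after lights on and the vertical axis the fitted peak-to-trough difference of log2(FPKM + 1); filled points have an adjusted p under 0.05, open points do not, and grey marks darkness. In the pineal gland 10 of the 15 filled points lie in darkness, Slc17a6 highest at 2.67, and in the retina Slc6a6 is the only filled point.

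The DNA before the start of the genes whose rhythm differed between the tissues is shown here because these are the members that move together or apart by tissue. RefSeq gene starts on the GRCr8 assembly gave a window for 50 of the 65 members, among them 4 of the 5 (Slc38a3 has none). The 250 bases before the start are printed on the strand of the gene, 5′ to 3′. Capitals mark matches, on either strand, to the cAMP response element TGACGTCA, its shorter core TGACG (which lies within TGACGTCA), the amino acid response element TGATGNAAN bound by ATF4, or the E-box CACGTG. The windows are chr1:110348197-110348446, plus strand for Slc17a6, chr4:125752252-125752501, plus strand for Slc6a6, chr19:66872413-66872662, minus strand for Slc7a5 and chr12:11664238-11664487, plus strand for Slc7a1.
Slc17a6: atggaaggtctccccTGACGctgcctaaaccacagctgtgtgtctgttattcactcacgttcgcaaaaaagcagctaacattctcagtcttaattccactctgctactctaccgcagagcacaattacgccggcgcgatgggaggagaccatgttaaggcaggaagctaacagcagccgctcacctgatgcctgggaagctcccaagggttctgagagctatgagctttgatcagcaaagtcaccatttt
Slc6a6: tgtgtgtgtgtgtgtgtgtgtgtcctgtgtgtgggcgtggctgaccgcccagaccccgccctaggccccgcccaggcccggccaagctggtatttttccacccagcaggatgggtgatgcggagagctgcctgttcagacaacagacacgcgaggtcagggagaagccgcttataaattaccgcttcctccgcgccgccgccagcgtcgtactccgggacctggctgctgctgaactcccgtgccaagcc
Slc7a5: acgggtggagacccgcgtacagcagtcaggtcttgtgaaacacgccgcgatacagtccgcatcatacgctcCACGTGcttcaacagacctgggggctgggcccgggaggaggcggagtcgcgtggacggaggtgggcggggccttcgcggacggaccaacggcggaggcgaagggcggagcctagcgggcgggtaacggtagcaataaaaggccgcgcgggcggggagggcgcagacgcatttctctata
Slc7a1: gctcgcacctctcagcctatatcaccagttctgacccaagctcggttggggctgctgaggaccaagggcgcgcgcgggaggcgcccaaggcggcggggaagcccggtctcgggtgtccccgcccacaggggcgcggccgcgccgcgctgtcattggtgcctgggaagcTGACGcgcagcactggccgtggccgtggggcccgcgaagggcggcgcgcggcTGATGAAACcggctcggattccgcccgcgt

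The Slc17a6 window held TGACG at base -235, counted from the start, and again at 46 after it, past the printed bases, and Slc7a1 held TGACG at -82 and the amino acid response element at -30. Slc7a5 held an E-box at -179, and the Slc6a6 window held none of the 4 motifs. Over all 33469 windows of the table, which also take in 50 bases after the start, TGACGTCA occurred in 1.83%, TGACG in 21.2%, TGATGNAAN in 3.97% and CACGTG in 6.42%. Of the 13 members called in the pineal gland that have a window, 1 held TGACGTCA (Slc38a6), 3 held TGACG (Slc17a6, Slc38a6, Slc7a1), 2 held TGATGNAAN (Slc38a1, Slc7a1) and 1 held CACGTG (Slc7a5). These matches are a description of the letters in the windows.

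**Figure D3:**
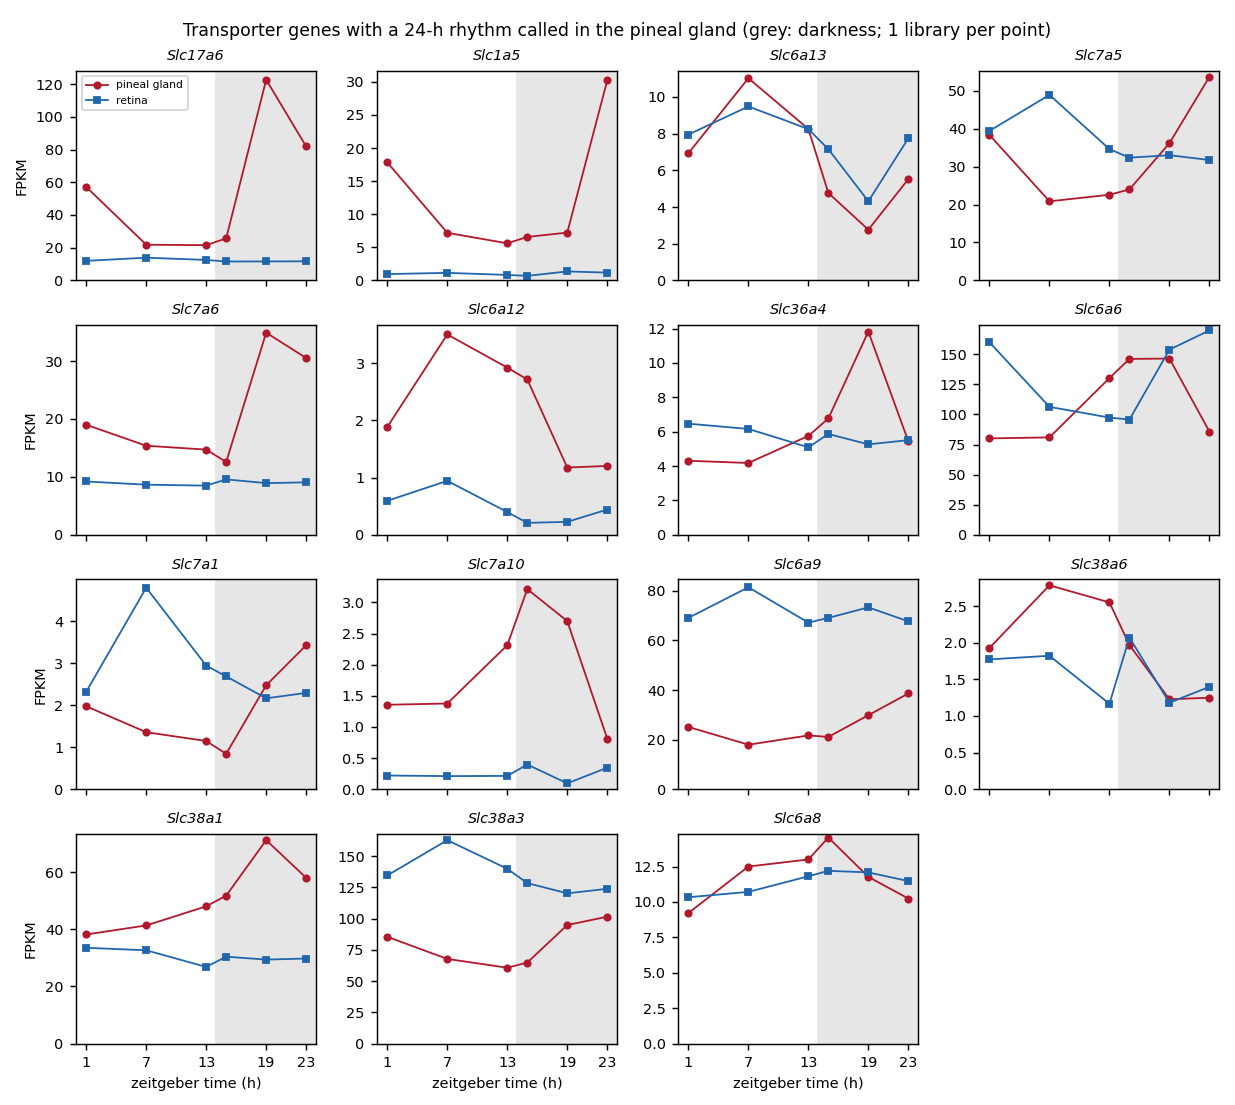
Time courses of 15 of the 16 members called rhythmic in the pineal gland, in order of fitted peak-to-trough difference. The horizontal axis is hours after lights on and the vertical axis FPKM from 0; each point is 1 library (red circles, pineal gland; blue squares, retina) and grey marks darkness. Slc17a6, Slc1a5, Slc7a5 and Slc7a6 are highest in pineal libraries of ZT19 or ZT23, Slc6a13, Slc6a12 and Slc38a6 at ZT7, and Slc6a6 has its high libraries at other times in the pineal gland than in the retina.

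Among the vesicular glutamate transporters was the gene with the largest fitted peak-to-trough difference of the 44 tested members. Slc17a6 (VGLUT2; rn4 chr1:101425975-101466023) measured 57.1 FPKM at ZT1, 21.8 at ZT7, 21.5 at ZT13, 25.7 at ZT15, 123 at ZT19 and 81.9 at ZT23 in the pineal gland, against 11.9, 13.9, 12.5, 11.6, 11.6 and 11.7 FPKM at the same times in the retina. The mid-night and late-night pineal libraries stood highest, ZT1 was next, and the pineal libraries from ZT7 to ZT15 stayed at about the same low level, still above every retina library. The highest pineal value was 5.70 times the lowest. The fitted peak-to-trough difference in the pineal gland was 2.67 with a peak at ZT21.4 (limma adjusted p = 0.00116; called in 19 of 19 alternative settings). The difference of the rhythm between the tissues was 2.90 from peak to trough (adjusted p = 0.0133); this call was lost without the retina ZT7, ZT13 or ZT23 library (adjusted p 0.0516 to 0.0766).

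Slc17a7 (VGLUT1; rn4 chr1:95640750-95651938), the carrier of most glutamatergic neurons of the cortex and of retinal photoreceptors, was the most abundant member. It measured 395 FPKM at ZT1, 456 at ZT7, 421 at ZT13, 419 at ZT15, 329.9 at ZT19 and 360.4 at ZT23 in the pineal gland and 289, 325, 262, 264, 293 and 273 FPKM in the retina, against 56.9 and 71.7 FPKM in mixed tissue. Pineal ZT19, where Slc17a6 was highest, held the lowest pineal value of Slc17a7, and every pineal library lay above every retina library. Its rhythm was not called in the pineal gland (0.45 from peak to trough, adjusted p = 0.121). Slc17a8 (VGLUT3), found in some retinal amacrine cells, was listed at 0 in all 6 pineal libraries and lay between 0.697 and 1.13 FPKM in the retina.

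The sum of the 3 vesicular glutamate transporters stayed between 442 and 478 FPKM over the 6 pineal libraries. Slc17a6 made up 12.6% of that sum at ZT1, 4.57% at ZT7, 4.87% at ZT13, 5.79% at ZT15, 27.1% at ZT19 and 18.5% at ZT23 in the pineal gland. In the retina its share was 3.79% to 4.53%, and in mixed tissue 17.8% at ZT19 and 17.1% at ZT7. The pineal share thus came near or passed that of mixed tissue in 2 libraries and was close to that of the retina in 3.

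**Figure D4:**
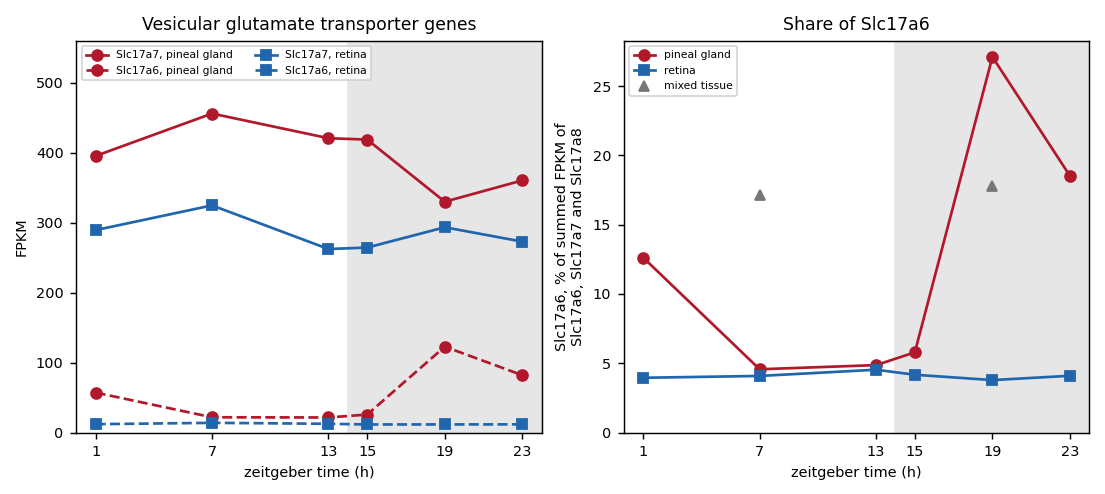
Vesicular glutamate transporter genes by time of day. Left, FPKM of Slc17a7 (solid) and Slc17a6 (dashed) in the pineal gland (red circles) and the retina (blue squares); right, Slc17a6 as a percentage of the summed FPKM of Slc17a6, Slc17a7 and Slc17a8, with mixed tissue as grey triangles; the horizontal axes are hours after lights on, each point is 1 library and grey marks darkness. The pineal share of Slc17a6 is 27.1% at ZT19 and 4.57% at ZT7, while the retina stays between 3.79% and 4.53%.

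The other vesicular and lysosomal members were weakly expressed. Slc17a9, the vesicular nucleotide transporter that loads ATP, averaged 1.97 ± 0.299 FPKM in the pineal gland and 0.351 ± 0.149 FPKM in the retina (SD, n = 6 each), and all 6 pineal libraries lay above all 6 retinas (difference 1.14, SE 0.09, adjusted p = 4.11e-08). Slc17a5, the lysosomal sialic acid exporter sialin, lay between 1.45 and 2.27 FPKM in the pineal gland and 1.91 and 2.64 FPKM in the retina. Slc17a1, Slc17a2 and Slc17a3, phosphate and urate carriers of kidney and liver, were at or under 0.142 FPKM in all 12 pineal and retina libraries.

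Among the plasma membrane glutamate carriers, 1 gene made up most of the pineal level. Slc1a2 (GLT-1, the main glutamate carrier of astrocytes; rn4 chr3:87870558-87988864) measured 67.7 FPKM at ZT1, 67.5 at ZT7, 59.6 at ZT13, 67.0 at ZT15, 46.6 at ZT19 and 52.9 at ZT23 in the pineal gland and 33.2, 44.3, 34.4, 34.7, 30.6 and 29.2 FPKM in the retina, against 41.7 and 60.0 FPKM in mixed tissue. Every pineal library lay above every retina library (difference 0.79, SE 0.12, adjusted p = 4.39e-05). Slc1a2 was 80.6% to 90.6% of the summed FPKM of the 5 glutamate carriers Slc1a1, Slc1a2, Slc1a3, Slc1a6 and Slc1a7 in the pineal gland, and 21.6% to 29.3% in the retina. Its pineal rhythm was not called (0.46, adjusted p = 0.183).

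The table holds 2 Slc1a2 transcripts with a shared start and different ends, and the tissues used them differently. The transcript that ends first (rn4 chr3:87870558-87988864) held 94.2% to 96.4% of the Slc1a2 level in pineal libraries, 85.2% to 96.8% in retinas and 17.8% to 21.3% in mixed tissue. The transcript that ends later (rn4 chr3:87870558-87992401) had a median of 3.00 FPKM in the pineal gland, 2.90 in the retina and 41.0 in mixed tissue. The summed level was called lower in the retina than in mixed tissue (difference -0.54, adjusted p = 0.0143). That call was lost without mixed ZT7 (-0.28, adjusted p = 0.305), under median ratio scaling (-0.22, adjusted p = 0.107) and under quantile normalization (-0.21, adjusted p = 0.208). With only the highest transcript of the gene the difference was 1.59, in the other direction (adjusted p 1.05e-06 to 0.305 over all alternatives). These shares are the estimates of the authors' software, which had to divide fragments between transcripts that overlap.

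The other glutamate carriers were lower in the pineal gland than in the retina. Slc1a3 (GLAST, the carrier of Müller glia) measured 4.38, 4.54, 9.60, 5.93, 4.93 and 4.72 FPKM over the 6 pineal times and 50.2, 51.3, 45.1, 44.1, 45.6 and 49.7 FPKM over the 6 retina times, and Slc1a7 (EAAT5, the glutamate-gated chloride channel of photoreceptors and bipolar cells) measured 0.853, 0.913, 1.35, 2.23, 0.722 and 0.502 FPKM and 47.2, 43.7, 38.3, 38.5, 51.6 and 46.9 FPKM. No pineal library came near the lowest retina for either gene, and the pineal ZT13 library held the highest Slc1a3 of the pineal series. The difference on the log2 scale, pineal gland minus retina, was -2.91 (SE 0.14) for Slc1a3 and -4.47 (SE 0.15) for Slc1a7 (adjusted p = 4.47e-11 and 9.74e-13). Markers of Müller glia (3 of 5 found) summed to 76.5 to 113.5 FPKM in pineal libraries and 171 to 203 FPKM in retinas, and bipolar markers (5 of 5) to 58.7 to 103.7 and 275 to 348 FPKM; their part in the result was not tested. Slc1a1 (EAAC1, the neuronal carrier) was also lower in the pineal gland, at 2.13 ± 0.718 FPKM against 9.97 ± 1.15 FPKM in the retina (SD, n = 6 each; adjusted p = 1.04e-08).

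Slc1a5 (ASCT2, a glutamine and neutral amino acid exchanger; rn4 chr1:77111082-77125166) was the pineal member of SLC1 with a rhythm. It measured 17.8 FPKM at ZT1, 7.19 at ZT7, 5.60 at ZT13, 6.57 at ZT15, 7.22 at ZT19 and 30.2 at ZT23 in the pineal gland, while the 6 retinas lay between 0.687 and 1.35 FPKM. The libraries on both sides of lights on, ZT23 and ZT1, were high and the other 4 were low, and all 6 pineal libraries were above all 6 retinas. The fitted pineal peak was at ZT0.2, with 1.92 from peak to trough (adjusted p = 0.0104), and the tissue difference was 2.48 (SE 0.32, adjusted p = 5.57e-06). The test of a different rhythm in the 2 tissues did not pass (adjusted p = 0.141). Slc1a4 (ASCT1, its close relative) lay between 0.638 and 1.93 FPKM in the pineal gland and 2.22 and 3.78 FPKM in the retina, with no call for rhythm.

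In SLC6 the taurine carrier stood out in both tissues. Slc6a6 (TauT; rn4 chr4:125875817-125945792), which brings in taurine, an amino acid abundant in photoreceptors and pineal gland, measured 80.1 FPKM at ZT1, 80.9 at ZT7, 130.2 at ZT13, 146 at ZT15, 146 at ZT19 and 85.8 at ZT23 in the pineal gland and 159.9 FPKM at ZT1, 106 at ZT7, 97.4 at ZT13, 95.7 at ZT15, 154 at ZT19 and 169.8 at ZT23 in the retina, against 27.7 and 27.8 FPKM in mixed tissue. In the pineal gland the libraries from ZT13 to ZT19 were high and those of ZT23, ZT1 and ZT7 low, whereas in the retina ZT19, ZT23 and ZT1 were high and ZT7 to ZT15 low. The pineal fit peaked at ZT16.0 with 1.10 from peak to trough (adjusted p = 0.00123), and the retinal fit peaked at ZT23.0 with 0.93 (adjusted p = 0.0191). The rhythms differed between the tissues (1.62 from peak to trough, adjusted p = 0.00238). The retinal call was lost without the retina ZT1, ZT7, ZT13, ZT15 or ZT23 library (adjusted p 0.0521 to 0.110), and the 3 high retinas also held the highest lens marker sums. Without retina ZT1 and ZT19 the retinal peak-to-trough difference was 0.90 (adjusted p = 0.285), and the part of lens RNA in the result was not tested otherwise.

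Slc6a11 (GAT-3, a GABA carrier of astrocytes) was low in the pineal gland. It measured 0.319, 0.280, 0.245, 0.664, 0.523 and 0.193 FPKM over the 6 pineal times and 29.8, 37.7, 34.8, 35.3, 37.4 and 30.9 FPKM over the 6 retina times. All 6 pineal libraries were below all 6 retinas. The difference on the log2 scale was -4.69 (SE 0.09, adjusted p = 3.18e-15). Amacrine markers (3 of 5 found) summed to 0.151 to 0.956 FPKM in pineal libraries and 89.3 to 100.4 FPKM in retinas. Astrocyte markers (3 of 4 found) overlapped between the tissues, at 57.5 to 90.0 FPKM in pineal libraries and 46.0 to 72.4 FPKM in retinas. The part of either cell type in the result was not tested.

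The neighbouring genes Slc6a12 and Slc6a13 peaked by day. Slc6a12 (BGT-1, a betaine and GABA carrier; rn4 chr4:157781178-157800038) measured 1.89 FPKM at ZT1, 3.50 at ZT7, 2.92 at ZT13, 2.72 at ZT15, 1.18 at ZT19 and 1.204 at ZT23 in the pineal gland, and Slc6a13 (GAT-2, a GABA and taurine carrier; rn4 chr4:157736264-157771945) measured 6.93 FPKM at ZT1, 11.02 at ZT7, 8.25 at ZT13, 4.76 at ZT15, 2.76 at ZT19 and 5.52 at ZT23. Both were highest at ZT7 and lowest at ZT19. The fitted peaks were at ZT9.1 with 1.18 from peak to trough for Slc6a12 (adjusted p = 0.00201) and at ZT7.1 with 1.61 for Slc6a13 (adjusted p = 0.00683), and both were called in 19 of 19 alternative settings. Meningeal markers (5 of 5 found) summed to 160 FPKM at ZT1, 223 at ZT7, 299 at ZT13, 183 at ZT15, 146 at ZT19 and 153 at ZT23 in the pineal gland; their part in the rhythm was not tested. In the retina Slc6a13 measured 7.95, 9.48, 8.24, 7.15, 4.31 and 7.74 FPKM at the same times, with no call (adjusted p = 0.195).

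Slc6a9 (GlyT1, the glycine carrier of glia and of retinal amacrine cells) was lower in the pineal gland than in the retina and highest there in late darkness. It measured 25.1 FPKM at ZT1, 17.9 at ZT7, 21.7 at ZT13, 21.1 at ZT15, 29.8 at ZT19 and 38.6 at ZT23 in the pineal gland, and the 6 retinas lay between 67.2 and 81.4 FPKM. Both late dark pineal libraries exceeded the other 4, and none reached the lowest retina. The tissue difference was -1.48 (SE 0.14, adjusted p = 2.14e-07), and the pineal rhythm peaked at ZT21.3 with 0.93 from peak to trough (adjusted p = 0.0145, and 0.0507 without the pineal ZT23 library). Slc6a8, the creatine carrier, had a shallow rhythm with a peak at ZT12.8 (0.49, adjusted p = 0.0231), which was lost without pineal ZT1, ZT15 or ZT23 (adjusted p 0.0644 to 0.0938).

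Slc6a20, an imino acid carrier that takes up proline, was the member most raised in the pineal gland over the retina. It measured 15.2, 18.5, 22.3, 12.7, 15.2 and 15.7 FPKM over the 6 pineal times, and the 6 retinas lay between 0.363 and 0.861 FPKM. The lowest pineal library was above the highest retina, and the difference was 3.48 (SE 0.13, adjusted p = 4.11e-12); the meningeal markers summed to 146 to 299 FPKM in pineal libraries and 21.6 to 26.7 FPKM in retinas, and their part was not tested. Slc6a15, a carrier of branched-chain amino acids and proline in neurons, ran the other way, at 0.0867 ± 0.134 FPKM in the pineal gland and 7.37 ± 0.423 FPKM in the retina (SD, n = 6 each; difference -2.95, adjusted p = 1.30e-13). Slc6a4, the serotonin carrier, was near the floor in the pineal gland, at 0.0152, 0.0441, 0.0446, 0.0145, 0.0232 and 0.0206 FPKM, and measured 6.00 FPKM at ZT19 and 6.06 at ZT7 in mixed tissue. Slc6a5 (GlyT2), Slc6a14, Slc6a18 and Slc6a19 likewise stayed at or under 0.0652 FPKM in all 12 pineal and retina libraries, and Slc6a7, the proline carrier of brain neurons, lay between 0 and 0.0416 FPKM in the pineal gland and 1.26 and 1.42 FPKM in the retina.

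The heteromeric carriers of SLC7 and SLC3 divided by their rhythm. Slc7a5 (LAT1; rn4 chr19:52120728-52149332), the exchanger of large neutral amino acids that carries tryptophan, measured 38.4 FPKM at ZT1, 20.9 at ZT7, 22.6 at ZT13, 24.0 at ZT15, 36.2 at ZT19 and 53.7 at ZT23 in the pineal gland and 39.5 FPKM at ZT1, 48.9 at ZT7, 34.6 at ZT13, 32.4 at ZT15, 33.0 at ZT19 and 31.8 at ZT23 in the retina. The pineal values were lowest at ZT7 and highest at ZT23, while the retina was highest at ZT7. The pineal rhythm peaked at ZT22.3 with 1.29 from peak to trough (adjusted p = 0.00136; called in 19 of 19 alternative settings), and it differed from the retina by 1.72 (adjusted p = 0.00828, and 0.0602 without the retina ZT7 library). Its heavy chain partner Slc3a2 (4F2hc) measured 50.4, 40.6, 45.6, 40.1, 40.2 and 60.4 FPKM over the pineal times, with no call for rhythm (0.37, adjusted p = 0.194). The ratio of Slc7a5 to Slc3a2 was 0.762 at ZT1, 0.514 at ZT7, 0.495 at ZT13, 0.598 at ZT15, 0.901 at ZT19 and 0.889 at ZT23 in the pineal gland, and 0.768 to 0.945 in the retina.

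Slc7a6 (y+LAT2), a Slc3a2 partner that exchanges basic for neutral amino acids, was a pineal night gene. It measured 19 FPKM at ZT1, 15.4 at ZT7, 14.7 at ZT13, 12.6 at ZT15, 34.9 at ZT19 and 30.5 at ZT23 in the pineal gland, and the 6 retinas lay between 8.49 and 9.56 FPKM. ZT19 and ZT23 were far above the other pineal libraries, and the step came after ZT15, which was the lowest. It averaged 32.7 ± 3.09 FPKM in late darkness (ZT19 and ZT23; SD, n = 2) and 16.4 ± 2.31 FPKM in the light (SD, n = 3), a difference of 0.96 (SE 0.13, adjusted p = 0.00190). The pineal call was lost when ZT15 was grouped with darkness (adjusted p = 0.476; 0.000257 to 0.476 over all alternatives). The same contrast in the retina was 0.03, and the difference between the tissues was 0.93 (SE 0.18, adjusted p = 0.0437), a call that held in 5 of 19 alternative settings (adjusted p 0.00478 to 0.993) and was lost without any 1 retina library but ZT15 or without pineal ZT7, ZT13 or ZT19 (adjusted p 0.0869 to 0.241). Its fitted rhythm peaked at ZT21.6 (1.26, adjusted p = 0.0291; 0.0502 to 0.118 without ZT13 or ZT23 of either tissue). The neighbouring Slc7a6os lay between 9.17 and 12.7 FPKM in the pineal gland, with no call (adjusted p = 0.156).

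Slc7a1 (CAT-1, the carrier of arginine and lysine found in most cells; rn4 chr12:7230519-7253858) was low in both tissues. It measured 1.97 FPKM at ZT1, 1.36 at ZT7, 1.15 at ZT13, 0.842 at ZT15, 2.47 at ZT19 and 3.43 at ZT23 in the pineal gland and 2.32 FPKM at ZT1, 4.80 at ZT7, 2.94 at ZT13, 2.69 at ZT15, 2.16 at ZT19 and 2.29 at ZT23 in the retina. The pineal gland was highest at ZT23 and lowest at ZT15, and the retina had 1 high library, ZT7. The pineal rhythm peaked at ZT23.0 (1.04, adjusted p = 0.0220, and 0.124 without pineal ZT23). It differed from the retina by 1.77 (adjusted p = 0.0326), a call that was lost without any of the 6 retina libraries or without pineal ZT13 or ZT23 (adjusted p 0.0533 to 0.124).

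Slc7a10 (Asc-1, a carrier of D-serine, glycine and small neutral amino acids) measured 1.36, 1.38, 2.31, 3.21, 2.70 and 0.812 FPKM over the 6 pineal times and lay between 0.0930 and 0.396 FPKM in the retina. The pineal values were highest at ZT15 and ZT19, and the fitted peak was at ZT15.0 (1.02, adjusted p = 0.0246, and 0.0796 without pineal ZT15). Choroid plexus markers (4 of 4 found) summed to 3658 FPKM in that ZT15 library and 705 to 1213 FPKM in the other pineal libraries; their part was not tested. Slc7a11 (xCT, the cystine and glutamate exchanger) measured 4.35, 5.45, 9.29, 4.79, 3.40 and 5.24 FPKM in the pineal gland and 6.22, 5.81, 6.83, 6.51, 3.81 and 5.75 FPKM in the retina, overlapping between the tissues, and its pineal rhythm was not called (0.70, adjusted p = 0.260).

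The remaining members of both families did not show a called rhythm. Slc7a8 (LAT2, a further neutral amino acid exchanger) averaged 13.2 ± 0.213 FPKM in late darkness (ZT19 and ZT23; SD, n = 2) and 19.3 ± 1.92 FPKM in the light (SD, n = 3), and was called lower in late darkness (-0.51, adjusted p = 0.0469). Slc7a2 (CAT-2) and Slc7a4 were higher in the pineal gland, at 6.16 ± 0.928 and 4.83 ± 0.603 FPKM, than in the retina, at 3.16 ± 0.529 and 2.82 ± 0.342 FPKM (SD, n = 6 each; adjusted p = 7.64e-06 and 1.65e-05). Slc7a3 (CAT-3, the neuronal basic amino acid carrier) and Slc7a14 were lower in the pineal gland, at 0.374 ± 0.164 and 0.103 ± 0.0814 FPKM, than in the retina, at 3.77 ± 0.580 and 6.80 ± 0.660 FPKM (adjusted p = 2.11e-10 and 1.32e-13). Slc7a7 (y+LAT1) lay between 0.458 and 0.738 FPKM in the pineal gland and 1.02 and 1.64 FPKM in the retina. Slc3a1 (rBAT, the heavy chain of the renal cystine carrier) lay between 8.03 and 10.5 FPKM in the pineal gland and 6.46 and 8.84 FPKM in the retina, although its light chain Slc7a9 stayed at or under 0.163 FPKM in these 12 libraries.

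The glutamine carriers of SLC38 were strongly expressed. Slc38a3 (SNAT3, which passes glutamine out of glia; rn4 chr8:112898405-112914444) measured 85.5 FPKM at ZT1, 67.8 at ZT7, 60.7 at ZT13, 64.8 at ZT15, 94.9 at ZT19 and 102 at ZT23 in the pineal gland and 135 FPKM at ZT1, 163 at ZT7, 140.0 at ZT13, 129 at ZT15, 120.3 at ZT19 and 124 at ZT23 in the retina, against 40.2 and 44.1 FPKM in mixed tissue. The pineal gland was highest at ZT19 and ZT23 and the retina at ZT7, and every pineal library lay below every retina library. The pineal rhythm peaked at ZT22.5 with 0.75 from peak to trough (adjusted p = 0.00432). It differed from the retina by 1.12 (adjusted p = 0.0122; 0.0561 to 0.0644 without retina ZT23 or ZT7).

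Slc38a1 (SNAT1, the glutamine uptake carrier of neurons) measured 38.2 FPKM at ZT1, 41.3 at ZT7, 48.0 at ZT13, 51.8 at ZT15, 71.2 at ZT19 and 58.0 at ZT23 in the pineal gland, and the 6 retinas lay between 26.8 and 33.5 FPKM. Every pineal library was above every retina, and the late dark libraries were highest (difference between tissues 0.71, SE 0.12, adjusted p = 0.000120). Its rhythm, with a fitted peak at ZT18.5, was near the threshold (adjusted p = 0.0493), and the call was lost without any 1 retina library and without ZT23, ZT19 or ZT13 of the pineal gland (adjusted p 0.0683 to 0.218). Slc38a2 (SNAT2, the carrier that cells induce when starved of amino acids) measured 16.7, 14.8, 21.7, 16.5, 17.1 and 18.2 FPKM over the pineal times and 24.1, 26.3, 21.4, 23.6, 23.5 and 25.4 FPKM over the retina times, with no call for a pineal rhythm (0.22, adjusted p = 0.566).

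Slc38a6, a carrier of unsettled substrate, was a low day-peaking gene at 1.93, 2.78, 2.55, 1.97, 1.23 and 1.25 FPKM over the pineal times, and the call of its rhythm (adjusted p = 0.0448) was lost without any 1 pineal library but ZT1 or without retina ZT1, ZT7, ZT19 or ZT23 (adjusted p 0.0534 to 0.137). The lysosomal Slc38a7 and Slc38a9, an arginine sensor of the mTORC1 pathway, lay between 3.49 and 5.65 FPKM and between 2.47 and 2.99 FPKM in the pineal gland, with no call for rhythm. Slc36a4 (PAT4, a carrier of proline and tryptophan) measured 4.31, 4.18, 5.75, 6.77, 11.8 and 5.44 FPKM over the pineal times, 1 library, ZT19, standing apart. Its fitted peak was at ZT17.9 (1.18, adjusted p = 0.0250), and the peak-to-trough difference lay between 0.69 and 2.05 over the alternatives. Slc43a2 (LAT4, which lets large neutral amino acids pass) averaged 19.6 ± 4.80 FPKM in the pineal gland and 8.21 ± 0.483 FPKM in the retina (SD, n = 6 each; difference 1.13, SE 0.13, adjusted p = 1.58e-06).

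Setting late darkness (ZT19 and ZT23) against the light (ZT1, ZT7 and ZT13) asked the night and day question in another way, with ZT15 given its own mean. In the pineal gland 7 of the 44 tested members were called, 4 higher and 3 lower, where 7.28% of all tested genes were called, 3.04% higher and 4.23% lower. Slc7a6 was described above. Slc17a6 averaged 102 ± 28.9 FPKM in late darkness (ZT19 and ZT23; SD, n = 2) and 33.5 ± 20.5 FPKM in the light (SD, n = 3) (difference 1.71, SE 0.34, adjusted p = 0.0153; 0.0636 and 0.134 without pineal ZT7 and ZT19). Slc38a1 rose by 0.59 (adjusted p = 0.0333; lost without pineal ZT7 or ZT19 or retina ZT19 or ZT23) and Slc6a9 by 0.64 (adjusted p = 0.0389). Slc6a12 (-0.76), Slc38a6 (-0.60) and Slc7a8 (-0.51) fell (adjusted p 0.0405 to 0.0469). The calls of Slc6a9, Slc6a12, Slc38a6 and Slc7a8 were lost without retina ZT19 or ZT23 and without any 1 of these pineal libraries: ZT23, ZT19, ZT13 and ZT7. Those of Slc6a9 and Slc6a12 were also lost without retina ZT1 or ZT13, and those of Slc38a6 and Slc7a8 without retina ZT7. The median of all tested genes was -0.12 in this contrast and -0.01 after median ratio scaling, and relative to it the 4 higher members stood at 1.83 (Slc17a6), 1.09 (Slc7a6), 0.77 (Slc6a9) and 0.71 (Slc38a1), and the 3 lower at -0.64 (Slc6a12), -0.48 (Slc38a6) and -0.39 (Slc7a8). After median ratio scaling 6 members were called higher and 0 lower, under quantile normalization 4 and 0, and when ZT15 was grouped with darkness 0 were called. The shares of all tested genes above hold for the main setting and not for these alternatives. Without retina ZT1 and ZT19 the count was 1, and on leaving out 1 library it lay between 1 and 12 (1 without pineal ZT7 or ZT19, 2 without retina ZT19 or ZT23, 3 without pineal ZT13 and 12 without pineal ZT1).

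Both late dark pineal libraries lay above all 3 light libraries for 6 of the 44 members (9.74% of all tested genes) and below them for 11 (31.5%). The 6 were Slc17a6, Slc38a1, Slc38a3, Slc6a9, Slc7a1 and Slc7a6. In the retina both lay above for 3 members (4.74% of all tested genes) and below for 16 (30.8%). Limma called 0 of the 44 in the retina, where 0.0096% of all tested genes were called. Slc7a8 and Slc36a1, 2 of the 44, had an unadjusted p under 0.05 there, as had 1238 of all 10416 tested genes. The difference of the late dark effect between the tissues was called for 1 of the 44, Slc7a6, against 0.71% of all tested genes.

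Between the tissues, 34 of 60 tested members were called in the pineal gland against the retina, 16 higher and 18 lower, where 68.9% of all 11656 tested genes were called, 36.9% higher and 32% lower. All 6 pineal libraries lay above all 6 retinas for 15 members (25.6% of all tested genes) and below them for 15 (24.4%). The median difference was 0.00 for the 60 members and 0.03 for all tested genes. Besides the members described above, Slc7a10 (1.19), Slc6a12 (1.10), Slc7a6 (1.05) and Slc17a6 (1.77) were higher in the pineal gland. The SLC1 family was divided, with Slc1a2 and Slc1a5 higher and Slc1a1, Slc1a3, Slc1a4, Slc1a6 and Slc1a7 lower. Slc1a6, at 0.112 ± 0.187 FPKM in the pineal gland and 0.474 ± 0.0609 FPKM in the retina (SD, n = 6 each), entered the test only through the mixed libraries, as did Slc38a4 and Slc43a1, and without either mixed library these 3 were no longer tested. Slc17a8, counted among the lower members, reached 1 FPKM only in the retina (3 libraries), so it entered the test only by being higher there. The call of Slc17a7 (0.47, adjusted p = 0.000794) was lost under quantile normalization, where the difference was -0.07. Libraries of different times served as the replicates of a tissue here, so their spread holds the time of day.

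**Figure D5:**
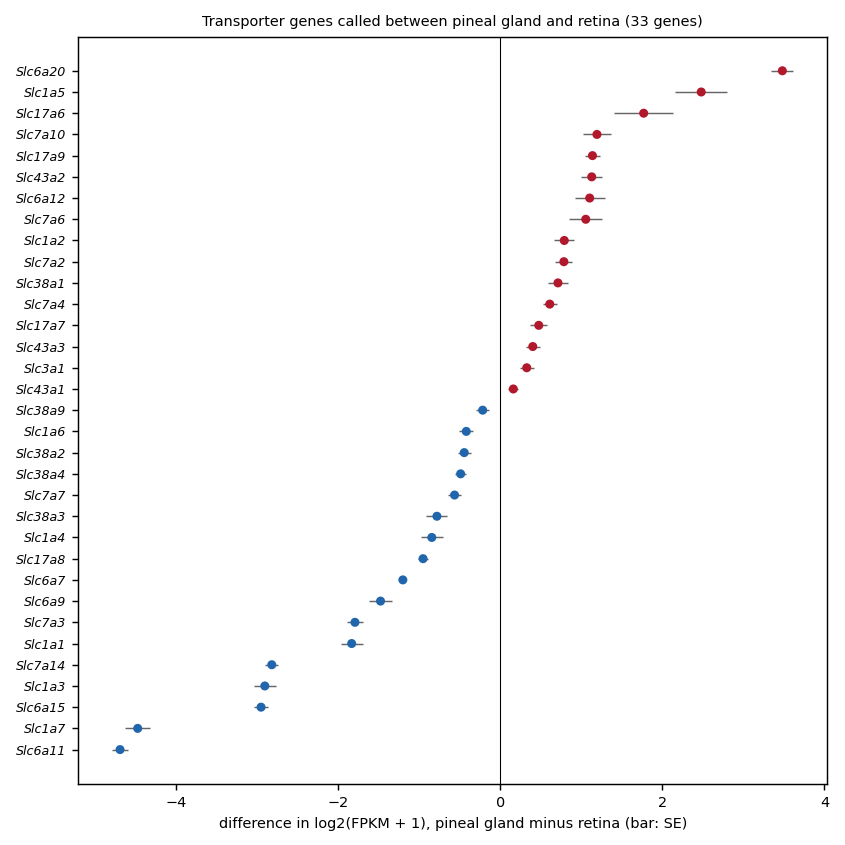
Differences for 33 of the 34 members called between the pineal gland and the retina, in order. The horizontal axis is the difference of mean log2(FPKM + 1), pineal gland minus retina (6 libraries each), with bars of 1 SE from limma; red points are higher in the pineal gland and blue points lower. Slc6a20 stands highest at 3.48 and Slc6a11 lowest at -4.69.

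Against mixed tissue, 49 of the 60 tested members were called in the pineal gland, 13 higher and 36 lower, where 64.8% of all tested genes were called, 19.8% higher and 45% lower. Every pineal library lay above both mixed libraries for 12 members (19.9% of all tested genes) and below them for 35 (45.3%). 15 of the 60 reached 1 FPKM only in mixed tissue and so had to be lower elsewhere, among them Slc6a5, Slc7a9 and Slc38a4. The median of all tested genes was -0.25, and relative to it Slc17a7 stood at 2.86, Slc6a6 at 2.17, Slc7a6 at 1.98, Slc6a20 at 1.90, Slc17a6 at 1.87, Slc1a5 at 1.78, Slc38a1 at 1.70 and Slc7a5 at 1.48. Mixed tissue averaged 5.24 ± 0.384 FPKM for Slc7a6, 4.64 ± 1.60 for Slc6a20, 13.6 ± 1.83 for Slc17a6, 2.93 ± 0.927 for Slc1a5, 17.8 ± 1.07 for Slc38a1 and 12.6 ± 0.692 for Slc7a5 (SD, n = 2 each). The call of Slc17a6 was lost without mixed ZT19 (adjusted p = 0.0852), and so was that of Slc1a5 (adjusted p = 0.0890). Among the lower members, Slc6a11 averaged 0.371 ± 0.183 FPKM in the pineal gland (SD, n = 6) and 28.0 ± 0.0250 in mixed tissue (SD, n = 2), Slc6a5 0.00605 ± 0.00645 and 9.71 ± 1.22, Slc6a15 0.0867 ± 0.134 and 7.13 ± 0.908, Slc7a9 0.0507 ± 0.0555 and 7.01 ± 0.198, Slc1a3 5.68 ± 1.998 and 54.6 ± 0.0536, and Slc38a4, a carrier of neutral amino acids in liver, 0.0115 ± 0.0181 and 7.35 ± 1.88. Under quantile normalization the median of all genes was 0.20 and the split of members was 22 higher and 32 lower; under median ratio scaling they were -0.05, 18 and 35. The count rests on the 2 mixed libraries, and was 31 without mixed ZT7 and 28 without mixed ZT19.

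In the retina against mixed tissue, 42 of the 60 were called, 12 higher and 30 lower, where 65% of all tested genes were called, 18.4% higher and 46.6% lower. Every retina lay above both mixed libraries for 13 members (21.7% of all tested genes) and below them for 32 (48.4%). Relative to the median of all tested genes, -0.30, Slc1a7 stood at 3.21, Slc6a6 at 2.45, Slc17a7 at 2.43, Slc38a3 at 1.95, Slc7a5 at 1.75, Slc6a9 at 1.26 and Slc38a1 at 1.04. Mixed tissue averaged 5.02 ± 0.425 FPKM for Slc1a7 and 36.03 ± 0.824 for Slc6a9 (SD, n = 2 each). Here too the 15 members that reached 1 FPKM only in mixed tissue had to be lower, among them Slc6a4 and Slc6a18. Slc17a8, counted among the higher members, reached 1 FPKM only in the retina and so entered the test only by being higher there. Among the lower members, Slc7a10 averaged 0.246 ± 0.108 FPKM in the retina (SD, n = 6) and 7.25 ± 1.60 in mixed tissue (SD, n = 2), Slc3a1 7.15 ± 0.892 and 51.1 ± 7.76, Slc6a4 0.0175 ± 0.0157 and 6.03 ± 0.0442, and Slc6a18 0.00604 ± 0.0148 and 6.43 ± 1.21. The call of Slc7a6 was lost without any 1 retina or mixed library or pineal ZT1. Under quantile normalization the median of all genes was 0.18 and the split of members was 21 higher and 27 lower, under median ratio scaling they were -0.03, 19 and 27, and the count was 23 without mixed ZT7 and 25 without mixed ZT19. Both comparisons share the mixed libraries. Carriers of kidney and gut were found mainly in the mixed libraries: Slc7a13, a renal carrier of acidic amino acids and cystine, measured 51.9 FPKM at ZT19 and 37.7 at ZT7 in mixed tissue and was listed at 0 in all 12 others, and Slc17a3 measured 6.69 FPKM at ZT19 and 6.05 at ZT7 and was likewise listed at 0. Slc7a9, Slc6a18, Slc6a19, Slc6a14 and Slc17a1 measured 3.04 to 7.29 FPKM in mixed tissue. Slc38a5, Slc43a1, Slc43a3 and Slc7a12 did not pass 1.12 FPKM in the pineal gland and lay between 1.05 and 4.64 FPKM in mixed tissue.

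The amino acid response, in which the factor ATF4 raises carriers and synthetic enzymes when amino acids are short, has 9 known targets among the members, and all 9 were tested for rhythm. 4 were called in the pineal gland (Slc6a9, Slc7a1, Slc7a5 with a dark peak and Slc1a5 with a peak just after lights on), where 20.7% of all tested genes were called, and limma called 0 in the retina, where 1.02% of all tested genes were called. Slc7a5, Slc3a2 and Slc7a1 had an unadjusted p under 0.05 in the retina, as had 2251 of all 10416 tested genes. These 3 were called there when the retina was fitted alone. For the 9 targets the median peak-to-trough difference was 0.70 in pineal glands and 0.39 in retinas, and for all tested genes it was 0.39 and 0.31 in these tissues. Slc7a11, Slc3a2, Slc38a2, Slc1a4 and Slc7a3 were the 5 targets with no call in the pineal gland.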

How the data were processed

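RNA of pooled rat pineal glands, retinas and mixed tissue was sequenced, and the authors deposited 1 table of FPKM per transcript for 14 libraries; the submitters' processing notes name the build rn4 and the tools Cufflinks 1.2.0 and TopHat 1.3.1. Neither read counts nor strand are given in the sources used here: depth was only estimated, and genes that overlap on opposite strands cannot be told apart. FPKM was summed over transcripts of a gene (11 transcripts with no gene ID were each kept as a gene of their own). FPKM of a low gene rests on few fragments and is the least precise.

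Tests were run with limma 3.58.1 in R 4.3.3 on log2(FPKM + 1), on genes with at least 1 FPKM in 2 or more libraries, with Benjamini-Hochberg adjustment over all of them. The time fit held a 24-h cosine per tissue or means of late dark, ZT15 and light per tissue; the tissue fit held the 3 tissues. Time points served as replicates, so p-values measure the spread between pools and times. No labels pair the libraries, so time of day was used as a block only as an alternative.

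The members and lists were chosen with earlier results of these data known. The values of 1 member are not reported here, although it stands in the counts. For the others, values are given by library, by range or by mean, and not always for both tissues. They cover genes chosen to stand for each role and up to 10 called members with the largest effect in each time comparison. They also cover up to 8 members in each direction in each tissue comparison. Alternatives were median ratio scaling, quantile normalization, a pseudocount of 0.1 FPKM, no filter, the highest transcript per gene, ZT15 with darkness, each tissue alone and each library left out; leaving out retina ZT1 and ZT19 together was chosen after seeing the data. The fits were tested on simulated data. Promoter windows came from RefSeq on GRCr8 and were matched by gene ID.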

Additional observations from a re-analysis of the deposited data

Results flagged for a closer look

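In 77 sets of 6 libraries (1 member in 1 tissue), 8 had a library that stood apart from the other 5. The rule flags about 1 in 20 sets of 6 true replicates. Here the 6 libraries are different times of day and the sets share libraries, so the 8 cannot be set against that rate. Pineal ZT13 stood apart for Slc1a3, the glial glutamate carrier (9.60 FPKM), and for Slc7a11, the cystine exchanger (9.29 FPKM). Pineal ZT19 stood apart for Slc36a4 (11.8 FPKM) and Slc7a2 (7.99 FPKM). Retina ZT7 stood apart for Slc1a2 (44.3 FPKM), Slc3a1 (8.84 FPKM) and Slc7a1 (4.80 FPKM), and retina ZT19 for Slc7a11 (3.81 FPKM, the lowest).

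The 24-h rhythm differed between the pineal gland and the retina, by the test of that difference in limma, for Slc17a6 (2.90 from peak to trough), Slc7a1 (1.77), Slc7a5 (1.72), Slc6a6 (1.62) and Slc38a3 (1.12). The difference between late darkness and light differed between the tissues for Slc7a6 (0.93).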

How the results depend on the processing

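Among the values, under the alternatives, of members called in the comparison and of the genes chosen for each role, 3321 kept their direction and side of the threshold, 244 lost the call, 10 gained one and 4 reversed. The reversals were Slc7a3 in the pineal gland against mixed tissue (0.010 under quantile normalization, against -1.08), Slc17a7 in the pineal gland against the retina (-0.070 under quantile normalization, against 0.47), and, in the retina against mixed tissue, Slc7a4 (0.15 under quantile normalization, against -0.49) and Slc1a2 (1.59 with the highest transcript, against -0.54).

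The late dark calls in the pineal gland (7) numbered 0 with ZT15 counted as darkness, 1 with no filter, 4 under quantile normalization, 1 with the tissue fitted alone and 1 without retina ZT1 and ZT19. The 1 call for a difference of the late dark effect between the tissues became 0 with ZT15 as darkness, under median ratio scaling or quantile normalization, with no filter, with a pseudocount of 0.1 FPKM and without retina ZT1 and ZT19. The rhythm calls in the pineal gland (16) numbered 5 with the tissue fitted alone and 8 without retina ZT1 and ZT19, and those in the retina (1) numbered 4 and 0. The 5 calls for a rhythm difference became 0 without retina ZT1 and ZT19. The cause was not tested, but the last alternative and single-tissue fits hold fewer samples.

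On leaving out 1 library, counts ran from 1 to 12 (late dark, pineal gland; 2 without retina ZT19 or ZT23, 3 without pineal ZT13), 0 to 0 (late dark, retina), 0 to 4 (difference of the late dark effect; 2 without pineal ZT23), 9 to 18 (rhythm, pineal gland), 0 to 1 (rhythm, retina), 1 to 10 (rhythm difference; 2 without retina ZT23, 3 without retina ZT13), 31 to 36 (pineal gland against retina), 28 to 50 (pineal gland against mixed tissue) and 23 to 43 (retina against mixed tissue; 25 without mixed ZT19). A lone mixed library was then assumed to vary like the other tissues. No labels pair the samples; with time of day as a replicate block, members called numbered 30 of 44 tested (pineal gland against retina), 42 of 59 (pineal gland against mixed tissue, where Slc17a6 was among the 7 calls lost, adjusted p = 0.0538 with a range of 0.00440 to 0.0852 over its alternatives) and 40 of 59 (retina against mixed tissue). Shares of all tested genes were given for the main setting only, so no such share stands beside the counts under the alternatives. Depth limits genes under about 1 FPKM most.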

Other observations

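Genes that make, break down or store the same transmitters were described beside the carriers, from a list of 19 tested genes of which 4 were called rhythmic in the pineal gland. Gls2, liver-type glutaminase, which makes glutamate from glutamine, measured 3.72 FPKM at ZT1, 0.851 at ZT7, 0.700 at ZT13, 0.441 at ZT15, 6.85 at ZT19 and 4.27 at ZT23 in the pineal gland. It was highest at ZT19 and ZT23, and its fitted peak was at ZT22.1 (2.41 from peak to trough, limma adjusted p = 0.00555). Maoa, monoamine oxidase A, peaked at ZT8.0 (0.75, adjusted p = 0.0292), and Slc18a2, the vesicular monoamine transporter, at ZT11.6 (0.75, adjusted p = 0.0218). Of 14 tested genes of the amino acid response outside the carrier families, 4 were called in the pineal gland: Ddit3 at ZT21.8, Mthfd2 at ZT21.9, Trib3 at ZT23.5 and Chac1 at ZT2.9. Of all tested genes 20.7% were called there. Asns, Psph and Atf4 were among those with no call in the pineal gland. Asns and Psph were lowest there at ZT19 (43.5 and 34.3 FPKM), and Atf4 lay between 51.2 and 60.5 FPKM. In the retina 2 of the 14, Asns and Atf5, were called with a peak in the light, where 1.02% of all tested genes were called.

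Between the mixed libraries, ZT19 against ZT7, the ratio of levels for members above 1 FPKM at ZT7 ran from 0.607 (Slc6a20) to 1.38 (Slc7a13). Slc6a12, which this rule left out, measured 0.524 FPKM at ZT7 and 1.16 FPKM at ZT19. Both mixed libraries are single, so there is no replicate check. Meningeal markers (5 of 5 found) summed to 251 FPKM at ZT19 and 308 FPKM at ZT7 in mixed tissue. Intestine markers (3 of 4 found) summed to 27.5 FPKM at ZT19 and 107.7 FPKM at ZT7. Red blood cell markers (4 of 4 found) ran the other way, at 2094 FPKM at ZT19 and 1588 FPKM at ZT7. The part of these tissues and cells in the ratios was not tested.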
